A study of Mus musculus with 6 samples.

Results

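The genes described here are Myc, its DNA-binding partner Max and genes whose products build ribosomes in the nucleolus. The group was set by a list of 39 gene symbols, of which 38 were found with a usable status in all 6 deposited tables, out of 23415 such entries. Noc2l is the listed symbol for which no value was analysed here. The 38 genes were arranged by role: Myc and Max, 6 genes of RNA polymerase I transcription, 4 of the box C/D and 4 of the box H/ACA ribonucleoproteins, 7 of the small and 10 of the large ribosomal subunit, and 5 abundant nucleolar proteins.

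Myc is a transcription factor that binds DNA as a dimer with Max, at a short sequence called the E-box, and it is known for raising the transcription of ribosome biogenesis genes when T cells are activated. RNA polymerase I then transcribes ribosomal RNA in the nucleolus, box C/D and box H/ACA particles modify it, and assembly factors cut, fold and export the small and large subunits. Resting T cells are small cells with small nucleoli, which enlarge as the cells grow and divide.

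CD4 T cells were taken from C57/Bl6j mice at 7 weeks of age, of wild-type genotype (WT) or without NLRP3 (NLRP3KO), a protein that senses danger signals and starts inflammasome assembly. From both genotypes, RNA was sequenced in naive cells of spleen and nodes and after 3 and 6 days of culture toward the T helper 2 (Th2) fate, with 1 library for each genotype and stage. All 4 Th2 cultures received IL-4 at 10 ng/ml with an antibody that blocks interferon gamma, in RPMI medium, on CD3/CD28 coated plates. Purified mRNA went into the naive libraries and RNA depleted of ribosomal RNA into the Th2 libraries, so stage and library preparation cannot be told apart. The 6 libraries are 6 groups without replicates, so each comparison of 2 libraries has no repeat and carries no p-value. The genotypes could be compared over the 3 stages together, and that fit is given after the single stages. The labels do not say how many mice gave each library or how the NLRP3KO allele was made.

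The promoter sequences are shown because the group is defined around Myc, and the E-box is the sequence that Myc and Max are known to bind. RefSeq promoters on build GRCm38.p6, from 250 bases before to 50 bases after the annotated start, matched 32 of the 39 symbols by name. Myc, Tcof1, Fbl, Rrp12, Bop1, Rrs1 and Npm1 had no entry. The E-box CACGTG, which reads the same on both strands, was in the promoters of 6 of the 32 genes (18.8%), in 17 of 80 promoters of the other ribosome biogenesis genes (21.2%) and in 8.09% of all 27025 gene symbols with a promoter. The 6 windows of 30 bases follow, in the direction of transcription, with the E-box in capitals.
Max: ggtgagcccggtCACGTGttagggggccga
Utp20: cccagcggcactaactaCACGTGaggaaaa
Wdr43: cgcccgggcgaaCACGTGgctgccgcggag
Pes1: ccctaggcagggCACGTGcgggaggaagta
Nop2: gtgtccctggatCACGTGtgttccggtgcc
Mybbp1a: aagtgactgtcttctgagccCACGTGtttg

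Counted from 0 at the annotated start, the E-box began at -60 in Nop2, -3 in Max, 2 in Pes1, 17 in Wdr43, 37 in Utp20 and 40 in Mybbp1a. The windows lie at chr6:125131811-125131840 for Nop2, chr17:71616220-71616249 for Wdr43, chr11:3963965-3963994 for Pes1 and chr11:72441347-72441376 for Mybbp1a, all on the plus strand. Those of Max, at chr12:76962234-76962263, and Utp20, at chr10:88826765-88826794, lie on the minus strand. A match describes the letters and does not show that a factor was bound.

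A second motif, CCGGAAG, was searched on both strands (CTTCCGG on the other), because proteins of the ETS family are known to bind such letters near many growth-related start sites. It does not overlap the E-box. It was in 10 of the 32 promoters (31.2%), that of Noc2l among them, in 38 of the 80 promoters of other ribosome biogenesis genes (47.5%) and in 9.93% of all gene symbols. Nop2 was the 1 gene with both motifs, and 15 genes had either. The windows of Nop2 and of 3 genes of the RNA polymerase I and snoRNP groups are shown with the motif in capitals.
Nop2: ccggtgccgcggCCGGAAGaggcggggcgt
Polr1c: cccacttgacgtCCGGAAGtgaaggacgtg
Nolc1: acgcgtgtgggaCCGGAAGcaacttctaga
Nhp2: ccacttgaaaacCCGGAAGtgatgtcggag

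These windows lie at chr6:125131833-125131862 for Nop2, chr19:46075821-46075850 for Nolc1 and chr11:51619738-51619767 for Nhp2 on the plus strand, and at chr17:46248070-46248099 for Polr1c on the minus strand. The motif began at -38, -14, -23 and -42 in that order.

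The libraries differed widely in depth. Fragments on genes, estimated from the deposited values, numbered 1661348 in naive WT and 1400725 in naive NLRP3KO, between 25520 and 31781 in 3 of the Th2 libraries and 5632 in NLRP3KO day 6, which stands apart. Nlrp3 was listed at an FPKM (fragments relative to transcript length and to the mapped fragments of a library) of 0.0569 in naive WT and at 0 in the other 5 libraries, so the level does not check the genotype. Of 5 CD4 T cell markers found, 5 were above 0 in naive WT, naive NLRP3KO, WT day 3 and WT day 6, 4 in NLRP3KO day 3 and 3 in NLRP3KO day 6. The summed FPKM of these 5 markers ranged from 1198 to 1552 in naive and from 33.6 to 52.8 in Th2 libraries. FPKM in this paragraph are as deposited. The factors that scale them further on were 0.328 and 0.245 in the naive and 1.62 to 2.02 in the Th2 libraries. Deposited naive and Th2 values, those of Xist included, are therefore not on a common scale. Cd8a, Cd8b1 and the listed myeloid, NK cell and erythroid markers were at 0 in all 4 Th2 libraries, and Cd79b, at an FPKM of 1.57 in WT day 3, was the only B cell marker above 0 there. Even in the far deeper naive WT library, Cd8a and Cd8b1 had only 11.5 and 90.6 estimated fragments. At the depth of the Th2 libraries, zeros of such markers do not show that these cells were absent. Xist, an RNA made from the inactive X chromosome, was at FPKM of 27.1, 37.8, 13.7 and 17.6 in the naive and day 3 libraries and at 0 in both day 6 libraries, so the day 6 cells differ from the others in this too. Its part in any result was not tested.

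The group as a whole took a smaller share of gene fragments in NLRP3KO than in WT Th2 cells at both times. At day 3 the 38 genes held 0.726% of fragments on genes in WT (220 fragments, exact 95% interval 0.634 to 0.828%) and 0.270% in NLRP3KO (69 fragments, 0.210 to 0.342%). At day 6 the shares were 0.717% in WT (228 fragments, 0.628 to 0.816%) and 0.213% in NLRP3KO (12 fragments, 0.110 to 0.372%). In naive cells they were 0.519% in WT (8624 fragments, 0.508 to 0.530%) and 0.469% in NLRP3KO (6565 fragments, 0.457 to 0.480%). Both Th2 WT libraries thus stood above all other libraries and both Th2 NLRP3KO libraries below them. These intervals cover counting error only, since amplified fragments without molecular identifiers are not independent molecules. In bulk RNA, fewer cells making these transcripts and less of them in each cell cannot be told apart.

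**Figure D1:**
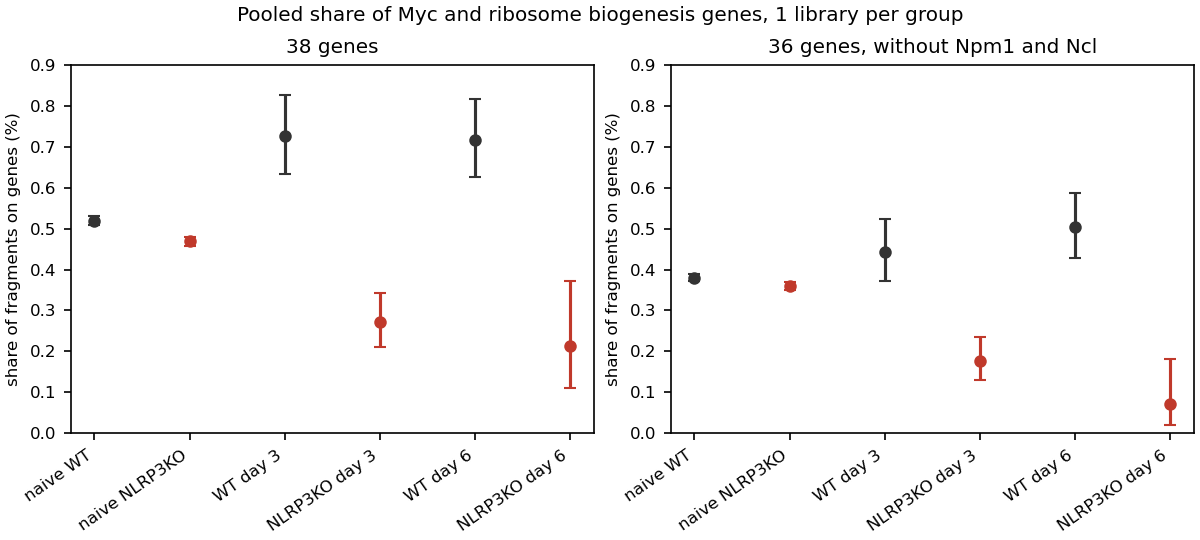
Share of fragments on genes (percent) held by the 38 genes (left) and by 36 genes without Npm1 and Ncl (right) in each of the 6 libraries, WT in black and NLRP3KO in red; points are single libraries and bars exact 95% binomial intervals. At day 3 WT lies at 0.726% and NLRP3KO at 0.270%, and without Npm1 and Ncl they lie at 0.442% and 0.176%.

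Levels of single genes are given as scaled FPKM, the deposited FPKM times a factor for each library, always in the same order: naive WT and NLRP3KO, then WT and NLRP3KO at day 3, then WT and NLRP3KO at day 6. Myc (mm9 chr15:61816896-61821916) was at 4.45, 6.21, 25.2, 11.6, 18.7 and 0. Its level was highest in WT day 3, and in NLRP3KO day 3 it stood between the WT Th2 and the naive libraries. Max (chr12:78038256-78063235) was at 8.84, 9.54, 7.28, 8.16, 5.30 and 0. Unlike that of Myc, the level of Max lay in a narrow range over the first 5 libraries. Max rests on 4, 4 and 3 fragments in WT day 3, NLRP3KO day 3 and WT day 6, too few to show a steady level. The Myc values rest on about 17 fragments in WT day 3 and 7 in NLRP3KO day 3, and the ratio of its shares of gene fragments, 0.489, had an exact interval from 0.171 to 1.24, which includes 1. Pooled with Max, 21 fragments in WT day 3 and 11 in NLRP3KO day 3 gave 0.622 (0.271 to 1.35).

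Genes of RNA polymerase I transcription had few fragments in Th2 cells and were mostly listed at 0 in NLRP3KO. Polr1a (chr6:71859047-71929355), the largest subunit of the enzyme, was at 1.87, 2.00, 2.24, 0, 2.18 and 0. Ubtf (chr11:102165874-102180410), which holds ribosomal DNA in an active form, was at 7.39, 8.02, 5.34, 0, 7.36 and 0. Polr1c, a subunit shared with RNA polymerase III, was at 6.93, 4.27, 2.88, 0, 5.58 and 0. All 3 had values in both WT Th2 libraries and none in either NLRP3KO Th2 library. In WT day 3 and day 6, Polr1a rests on 6 and 6 fragments, Ubtf on 5 and 7 and Polr1c on 1 and 2. Tcof1, the nucleolar protein treacle, was at 6.48, 6.60, 4.57, 2.56, 16.3 and 0, with its highest level in WT day 6. The subunits Polr1b and Polr1e followed Polr1a in being listed at 0 in both NLRP3KO Th2 libraries and above 0, between 1.16 and 1.73, in the WT ones. They rest there on 2 fragments or fewer. For Polr1b, Polr1c and Polr1e at day 3, the WT level was below what 3 fragments would give in NLRP3KO. At day 6 the same held for these genes, Polr1a and Ubtf. Such zeros do not show a lower level. Pooled, the 6 genes held 19 fragments in WT day 3 and 2 in NLRP3KO day 3, a ratio of shares of 0.125 (0.0141 to 0.518).

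The box C/D particle adds methyl groups to ribosomal RNA. Its core proteins Nop56 (chr2:130100148-130105049) and Nop58 (chr1:59741850-59768354) were at 15.8, 11.2, 17.2, 2.14, 12.95 and 0, and at 16.2, 9.03, 9.11, 6.13, 10.6 and 6.83. Nop56 was far lower in NLRP3KO day 3 than in WT day 3, whereas Nop58 was within a range of 6.13 to 10.6 over the 4 Th2 libraries. Nop58 rests on 5, 3, 6 and 1 fragments in them, too few to show a steady level. Fbl, the methyltransferase fibrillarin, was at 1.61, 1.61, 6.59, 3.69, 1.59 and 0, and Nolc1, a chaperone of these particles, at 5.41, 5.56, 2.87, 0, 5.58 and 0. Fbl was higher in both day 3 libraries than in the others, but rests on 2 fragments or fewer in each Th2 library. Pooled, the 4 genes held 19 fragments in WT day 3 and 5 in NLRP3KO day 3, a ratio of shares of 0.312 (0.0912 to 0.865).

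The box H/ACA particle turns uridines of ribosomal RNA into pseudouridine. Its enzyme Dkc1 was at 7.998, 4.52, 3.77, 0, 12.2 and 0. Nhp2 was at 12.7, 7.17, 3.89, 0, 7.52 and 0, and Gar1 at 1.57, 1.59, 5.93, 3.32, 5.74 and 0. Nop10, a short transcript, was at 53.8, 19.7, 0, 0, 5.85 and 0, and its naive WT value lies outside its own deposited confidence bounds. Dkc1 and Nhp2 were thus lower in naive NLRP3KO than in naive WT, while Gar1 was alike in both. With 6 and 1 fragments, the pooled ratio at day 3 was 0.198 (0.00430 to 1.63), an interval that includes 1.

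Of the small subunit factors, Utp20, a scaffold of the early precursor, was at 1.46, 1.24, 3.07, 0.861, 1.49 and 0. Nop14 was at 4.18, 3.46, 7.83, 2.93, 3.80 and 0. Both had their highest level in WT day 3 and a lower one in NLRP3KO day 3. Heatr1, which is needed for early cutting of the precursor, was at 2.67, 2.40, 1.51, 0.564, 2.45 and 0, and Wdr43 at 6.91, 5.72, 2.02, 1.13, 2.94 and 0. Wdr43 was higher in both naive libraries than in any Th2 library. Noc4l, Rrp9 and Rrp12 had levels between 0 and 6.97 in Th2 cells, on 3 fragments or fewer in each library. Pooled, the 7 genes held 22 and 7 fragments at day 3, a ratio of 0.378 (0.136 to 0.915).

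Of the large subunit factors, Bop1 and Pes1 act in 1 complex with Wdr12. Bop1 was at 3.99, 4.58, 1.43, 1.61, 11.1 and 0, with its highest level in WT day 6. Nop2, a methyltransferase, was at 2.55, 3.41, 0, 0, 3.92 and 0, and Nip7 at 2.71, 2.24, 1.21, 1.36, 3.54 and 0. Gnl3, the GTP-binding protein nucleostemin, was at 5.12, 4.48, 0, 2.15, 3.72 and 0 and so went the other way at day 3, on 1 fragment in NLRP3KO. Wdr12, Nop16 and Rrs1 were at 6.20, 6.30 and 5.26 in WT day 3 and at 0, 0 and 1.97 in NLRP3KO day 3. They rest on 5, 3 and 3 fragments in WT day 3. The exact intervals of their ratios of shares, with upper bounds of 1.30, 2.87 and 4.93, include 1. Pes1, Noc3l and Rrp1b stayed between 0 and 1.74 in both libraries. Pooled, the 10 genes held 17 and 6 fragments at day 3, a ratio of 0.419 (0.135 to 1.11), an interval that includes 1.

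The abundant nucleolar proteins carried more fragments than any other role group in each library. Npm1 (chr11:33052498-33063206), the histone chaperone nucleophosmin, was at 50.8, 19.8, 87.6, 22.7, 86.2 and 20.2. In each of the 3 stages the NLRP3KO library was the lower one, and the 3 NLRP3KO levels lay between 19.8 and 22.7. The NLRP3KO levels rest on about 7 fragments at day 3 and 1.9 at day 6, too few to show a steady level. At day 6 the ratio of Npm1 shares, 0.364, had an exact interval from 0.0422 to 1.43, which includes 1. Ncl (chr1:88241294-88256030), nucleolin, was at 13.3, 12.1, 22.6, 7.84, 14.8 and 9.25. It differed little between the naive libraries and was highest in WT day 3. Ddx21, an RNA helicase, was at 8.02, 8.34, 12.3, 7.32, 10.6 and 2.72, Mybbp1a, a Myb-binding protein that is also a ribosome factor, at 6.59, 7.60, 10.9, 3.77, 13.1 and 0, and Npm3, a relative of Npm1, at 6.75, 2.30, 0, 0, 4.51 and 0. For Ddx21 and Mybbp1a too the NLRP3KO library was lower at both Th2 times and slightly higher in naive cells. Npm1 has many near-identical pseudogene copies, so its values are uncertain where reads could be split among them. Pooled, the 5 genes held 115 fragments in WT day 3 and 37 in NLRP3KO day 3, a ratio of 0.382 (0.256 to 0.558).

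**Figure D2:**
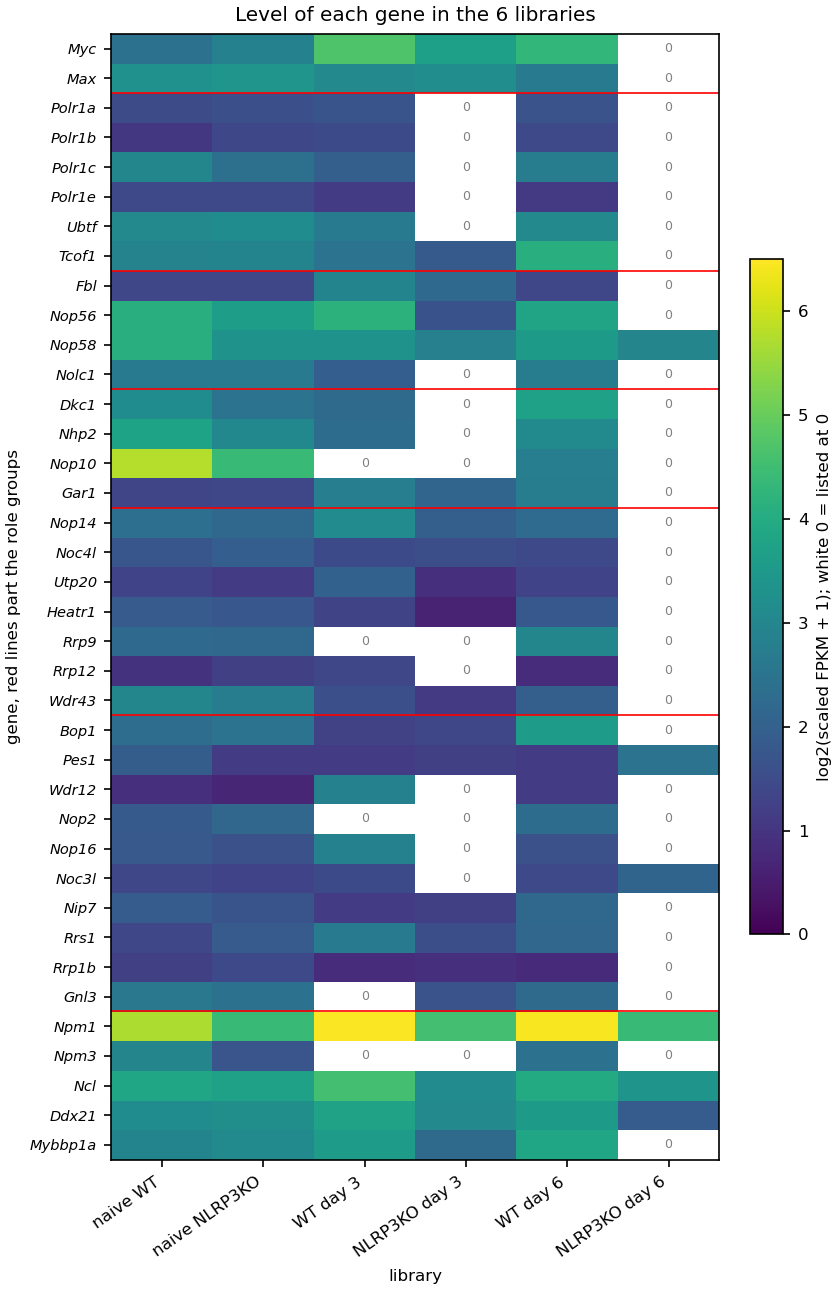
Level of each of the 38 genes (rows, parted by role) in the 6 libraries (columns), as log2(scaled FPKM + 1) in colour; a white cell with 0 is a value listed at 0. NLRP3KO day 6 has 32 genes at 0 and NLRP3KO day 3 has 16, against 5 in WT day 3 and 0 in WT day 6.

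At day 3, most of the group was lower in NLRP3KO than in WT. Differences are of log2(scaled FPKM + 1), which understates those of low genes, over genes that reached an FPKM of 1 in 1 of the 2 libraries. Of 25 such genes, 16 were at least 2-fold lower in NLRP3KO, against 27.2% of all 5749 entries, and 1 (Gnl3) was at least 2-fold higher, against 25.4%. The median difference was -1.17, beside 0.11 over all entries, and -0.68 over 19 genes where zeros were set to 3 fragments. Of all 34 genes above 0 in either library, 27 were lower in NLRP3KO by any amount, against 47.8% of entries, and 7 higher, against 52.2%. Myc, with a log2 difference of -1.05, was among the 16, as were Nop56 (-2.53), Npm1 (-1.90), Ncl (-1.42) and Mybbp1a (-1.32).

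The pooled ratio of shares at day 3, NLRP3KO over WT, was 0.372 (exact interval 0.280 to 0.490). It was 0.399 (0.278 to 0.563) without Npm1 and Ncl. The sum of scaled FPKM, which needs no fragment estimate, gave 0.349, and lengths as annotated gave 0.370. Of the 16 genes, 8 were above 0 in both libraries and 8 were listed at 0 in NLRP3KO. Deposited confidence bounds, scaled alike, did not overlap for 4 genes at least 2-fold lower, Polr1a, Ubtf, Npm1 and Ncl, against 2.52% of entries, and for 0 genes at least 2-fold higher, against 1.88%. Polr1a and Ubtf were listed at 0 in NLRP3KO, where the bounds are often 0 themselves, and the exact intervals of their ratios of shares, 0 to 1.01 and 0 to 1.30, include 1. Single-gene ratios with an exact interval below 1 were those of Nop56 (0.132), Npm1 (0.277) and Ncl (0.367), 3 of 34 genes, against 1.37% of all genes, and 0 had an interval above 1, against 2.02%.

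Of the 6 genes with an E-box in the promoter, Utp20 and Mybbp1a were at least 2-fold lower in NLRP3KO at day 3, against 27.2% of all entries. Pes1 and Nop2 did not reach an FPKM of 1 in either library and so are outside the counts at day 3. Wdr43 had a log2 difference of -0.50, Max of 0.15 and Pes1 of 0.09, and Nop2 was listed at 0 in both libraries. The exact intervals of the ratios of shares included 1 for all 5 genes with a value, so these differences are within counting error.

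**Figure D3:**
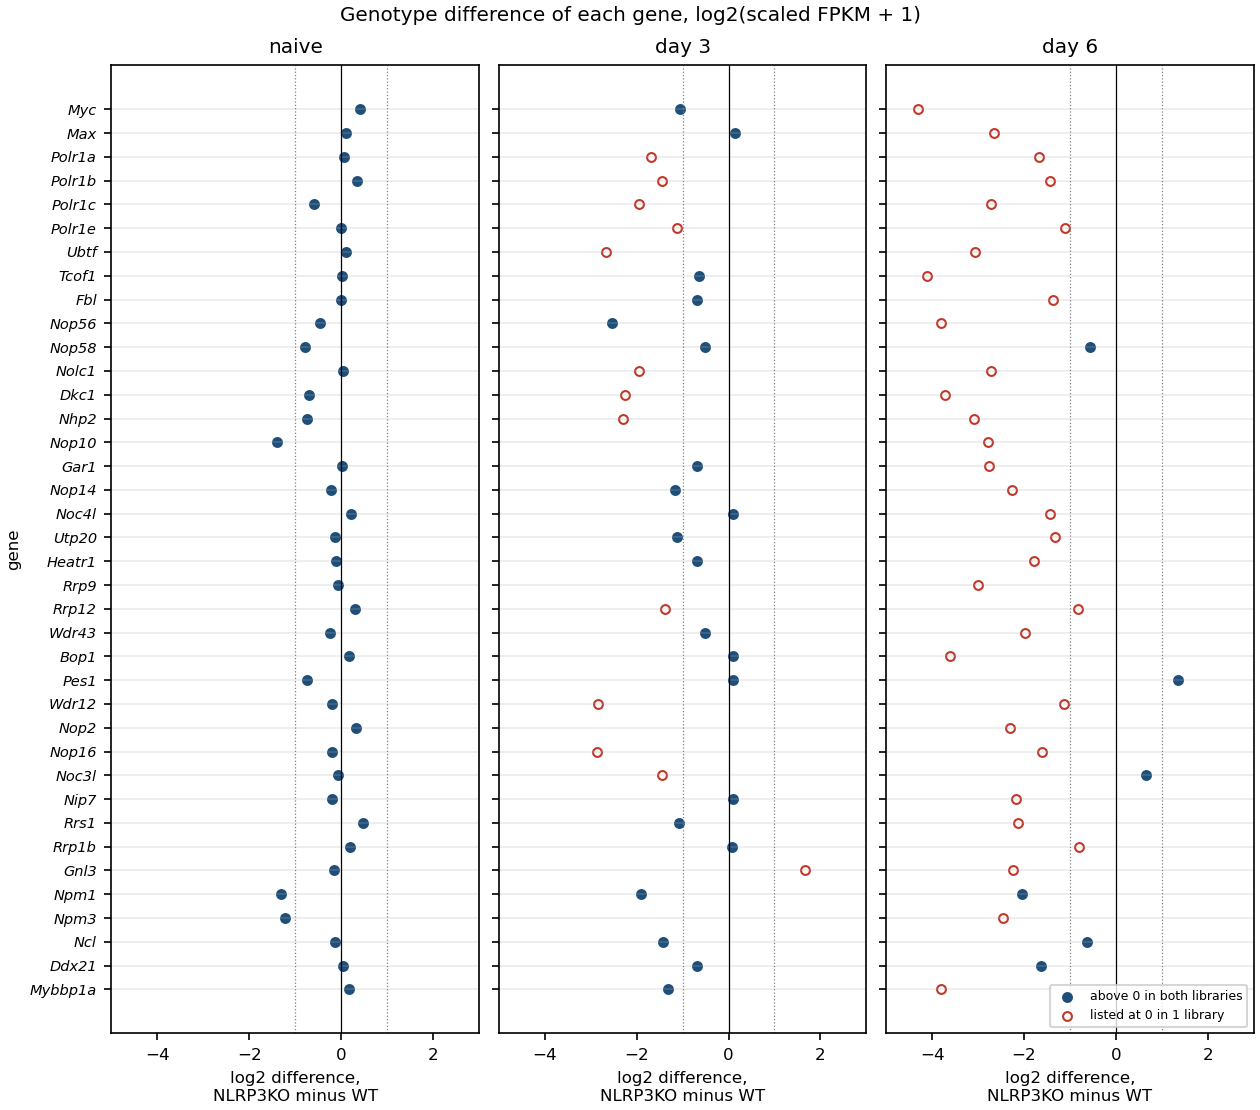
Log2 difference of scaled FPKM + 1, NLRP3KO minus WT, for each of the 38 genes in naive cells, at day 3 and at day 6; open red points have a value of 0 in 1 library, genes at 0 in both have no point, and dotted lines mark a 2-fold difference. Naive points lie within the 2-fold lines except Npm1, Nop10 and Npm3, day 3 points lie mostly to the left, and nearly all day 6 points are open.

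At day 6, 32 of the 38 genes were listed at 0 in NLRP3KO, while all 38 were above 0 in WT. Nop58, Pes1, Noc3l, Npm1, Ncl and Ddx21 were the 6 genes with a value in NLRP3KO. Of 30 genes that reached an FPKM of 1 in either library, 26 were at least 2-fold lower in NLRP3KO, against 53.8% of all 5336 entries, and 1 (Pes1, on 1 fragment in each library) was higher, against 20.9%. The median difference was -2.38, beside -1.52 over all entries. By any amount, 36 of 38 genes were lower in NLRP3KO, against 73.9% of entries, and 2 higher, against 26.1%. The NLRP3KO day 6 library had 5632 fragments on genes, 24 of the 30 genes were at 0 in it, and 3 of those, Mybbp1a, Tcof1 and Myc, had a WT level above what 3 fragments would give in NLRP3KO. The exact intervals of their ratios, 0 to 1.46, 0 to 1.57 and 0 to 1.85, still include 1. Bounds did not overlap for 9 genes (Myc, Polr1a, Ubtf, Tcof1, Nolc1, Dkc1, Heatr1, Bop1 and Mybbp1a), against 12.3% of entries, all 9 at 0 in NLRP3KO, and for 0 genes at least 2-fold higher, against 0.206%. Of 38 single-gene ratios, 0 had an exact interval below 1, against 0.166% of all genes, and 0 above 1, against 2.18%. At this depth, even 0 fragments in NLRP3KO against 20 in WT leave an upper bound of 1.14. Only Npm1 (30.9) and Ncl (37.1) had more than 20 in WT, so no other gene could have had an interval below 1.

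Pooled, the ratio of shares at day 6 was 0.297 (0.151 to 0.529). It was 0.141 (0.0380 to 0.368) without Npm1 and Ncl, on 4 fragments in NLRP3KO. Of the role groups, RNA polymerase I transcription had an interval below 1, with 0 fragments in NLRP3KO and 33 in WT (upper bound 0.667). The other role groups had intervals that included 1, among them the abundant nucleolar proteins at 0.508 (0.226 to 1.00).

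**Figure D4:**
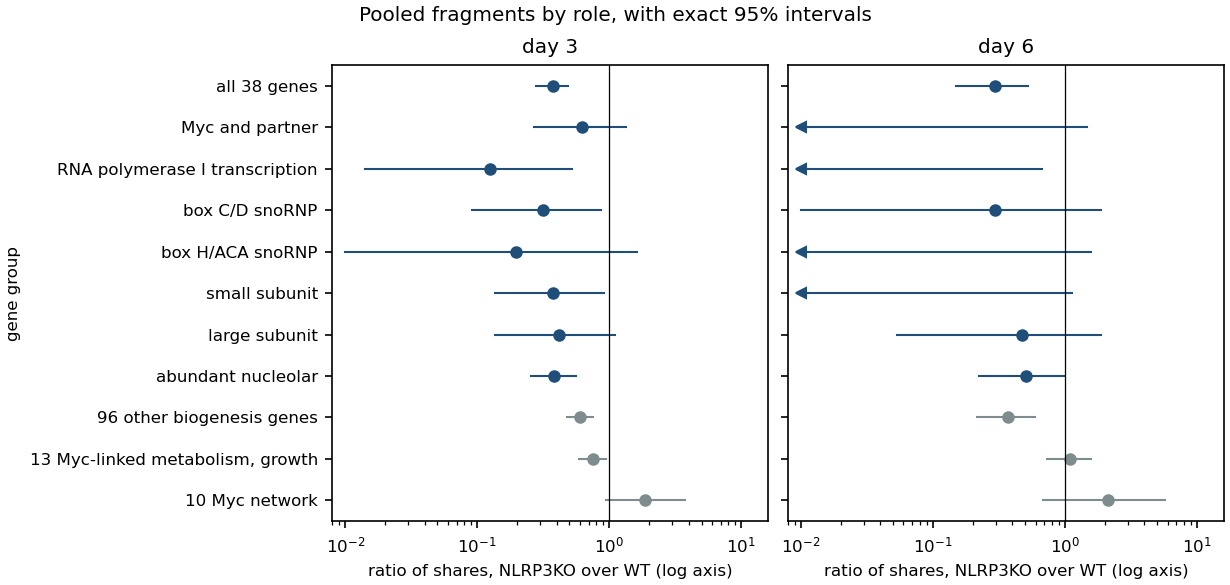
Ratio of the share of gene fragments, NLRP3KO over WT (log axis), at day 3 and day 6 for the 38 genes, their 7 role groups (blue) and other lists of the pathway (grey); bars are exact 95% intervals, arrows mark a ratio of 0, and bars that reach 0.01 go on below it. At day 3 each role group lies left of 1, with the RNA polymerase I genes at 0.125 and the large subunit genes at 0.419.

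In naive cells all but 3 of the 38 genes were within 2-fold between genotypes. All 38 genes were above 0 in both libraries, 3 were at least 2-fold lower in NLRP3KO, against 2.32% of all 9985 entries, and 0 were higher, against 0.210%. The 3 were Nop10 (log2 difference -1.40), Npm1 (-1.32) and Npm3 (-1.23), and the bounds of all 3 did not overlap, against 1.97% of entries and 0.180% for higher genes. By any amount, 21 of 38 genes were lower in NLRP3KO, against 48.5% of entries, and 17 higher, against 51.5%. Single-gene ratios of shares had an exact interval below 1 for 9 genes, against 9.06% of all genes: Polr1c, Nop56, Nop58, Dkc1, Nhp2, Nop10, Pes1, Npm1 and Npm3. They had one above 1 for 6, against 16.1%: Myc, Polr1b, Rrp12, Nop2, Rrs1 and Mybbp1a. Myc was higher in NLRP3KO, with a log2 difference of 0.40. The B cell markers differed in the same pair of libraries: all 4 were lower in NLRP3KO, with a summed FPKM of 74.2 in WT and 33.0 in NLRP3KO, and their part in these differences was not tested. The median was -0.07, beside 0.01 over all entries. The pooled ratio was 0.903 (0.874 to 0.932) by fragments, but 0.682 by the sum of scaled FPKM, in which Npm1 and Nop10 weigh more. Its size thus depends on the measure.

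The naive difference was lowest in the shortest transcripts, in the group as among all genes. Below 1500 bases, the median difference was -0.75 over 7 genes of the group and -0.22 over 2029 genes in all. From 1500 to 3000 bases it was -0.16 over 17 genes of the group, beside 0.05 over all, and from 3000 to 5000 bases 0.08 over 10, beside 0.08. From 5000 bases on, it was -0.12 over 4 genes, beside 0.01, so it did not go on in 1 direction. Npm1, Nop10 and Npm3 are among the 7 short ones. The part of length in these 3 differences was not tested.

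**Figure D5:**
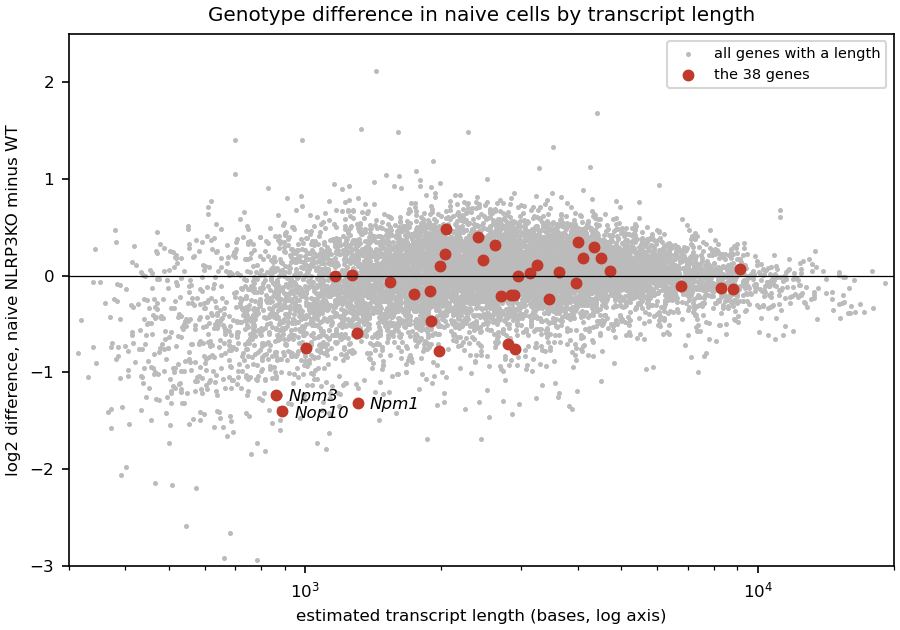
Log2 difference in naive cells, NLRP3KO minus WT, against the estimated transcript length in bases (log axis) for all genes with a length (grey) and the 38 genes (red). The 3 genes at least 2-fold lower, Npm1, Nop10 and Npm3, are all shorter than 1500 bases, where the median of all genes is -0.22.

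Over the 3 stages together, genotype was fitted with stage as a block by limma on log2(scaled FPKM + 1), for 6838 entries with a mean scaled FPKM of at least 1. The fit has 2 residual degrees of freedom. Of 35 genes of the group, 0 passed an adjusted p of 0.05 (Benjamini-Hochberg over all entries), as did 0 of all entries, and the smallest adjusted p was 0.766. At an unadjusted p under 0.05, 5 genes were lower in NLRP3KO, against 2.63% of entries, and 0 higher, against 0.526%. The 5 were Npm1, Nhp2, Dkc1, Nop56 and Polr1c, each lower in 3 of 3 stages. For Nhp2, Dkc1 and Polr1c at both Th2 times, and for Nop56 at day 6, the NLRP3KO value was 0. The WT level was there below what 3 fragments would give in NLRP3KO, so these zeros could reflect depth alone. Npm1, for example, had a fitted log2 difference of -1.75 (SE 0.45, limma adjusted p = 0.766). The fitted difference was below 0 for 34 of the 35 genes, against 65.6% of entries, with a median of -1.10 beside -0.29. Zeros enter this fit as values: in NLRP3KO, 16 of the 38 genes were listed at 0 at day 3 and 32 at day 6. In the deep naive libraries, 21 genes were lower in NLRP3KO and 17 higher. The count of 34 therefore does not show that the 3 stages agree.

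From naive to day 3, Myc was higher in WT, with a log2 difference of 2.26 and a ratio of shares of 6.71 (3.80 to 11.1). In NLRP3KO the log2 difference was 0.81 and the ratio 2.18 (0.865 to 4.59), an interval that includes 1. Its bounds did not overlap in WT, where it was the 1 gene of the group at least 2-fold higher in that way, against 2.98% of entries. Of the group, 6 of 38 genes were at least 2-fold higher in WT day 3 than in naive WT, against 9.99% of all 9562 entries, and 9 were lower, against 31.3%. The 6 were Myc, Wdr12 (1.95), Fbl (1.54), Gar1 (1.43), Rrs1 (1.26) and Nop16 (1.06). The 9 were Polr1c, Nhp2, Nop10, Rrp9, Wdr43, Bop1, Nop2, Gnl3 and Npm3, of which 5 were listed at 0 in WT day 3 and 6 had bounds that did not overlap, against 27.1% of entries. By any amount, 17 genes were higher in WT day 3, against 28.1% of entries, and 21 lower, against 71.9%. In NLRP3KO, 0 of 38 genes were at least 2-fold higher, against 10.8% of 10048 entries, and 20 were lower, against 32.1%. Bounds did not overlap for 17 of the 20, against 28.1% of entries, and for 0 higher genes, against 2.68%. Of the 20, only 5 were above 0 in both libraries. In NLRP3KO day 3, 16 of the 38 genes were listed at 0, where the bounds are often 0 themselves. Of those 16, 5 had a naive level above what 3 fragments would give there, so the counts of lower genes rest largely on zeros limited by depth. By any amount, 5 genes were higher in NLRP3KO day 3, against 27.3% of entries, and 33 lower, against 72.7%. The medians were -0.28 in WT and -1.09 in NLRP3KO, beside -0.52 and -0.53 over all entries.

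Pooled, the share at day 3 against naive was 1.40 times as large in WT (1.22 to 1.60) and 0.577 times as large in NLRP3KO (0.448 to 0.731). In WT the ratio was 1.16 (0.972 to 1.38) without Npm1 and Ncl and 0.960 by the sum of scaled FPKM, so its direction depends on the measure. In NLRP3KO the same settings gave 0.491 and 0.491. By role, Myc and Max together were higher in WT day 3 at 3.19 (1.95 to 4.95), the abundant nucleolar proteins at 1.95 (1.60 to 2.35), and the box H/ACA genes lower at 0.329 (0.121 to 0.719). The difference between WT day 3 and naive also varied with length: the median of all genes was -0.90 below 1500 bases and -0.26 from 5000 bases on, and that of the group -1.03 over 7 genes and 0.45 over 4. In NLRP3KO the medians of all genes were -0.78 and -0.24, while those of the group were -1.72, -0.70, -1.28 and -0.85 from the shortest to the longest bin, with no steady order. Differences by length and by library preparation cannot be told apart.

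Between day 3 and day 6 the WT share hardly moved, with a ratio of 0.988 (0.817 to 1.19). Of 31 genes, 9 were at least 2-fold higher at day 6, against 24.1% of all 5592 entries, and 3 lower, against 20.2%, with a median of 0.24 beside -0.03, which is -0.02 with no minimum FPKM and -0.03 over 26 genes with zeros set to 3 fragments. Tcof1, with a log2 difference of 1.63, was the 1 gene at least 2-fold higher whose bounds did not overlap, against 1.32% of entries, beside 0 lower genes, against 1.41%. By any amount, 17 genes were higher, against 44.6% of entries, and 21 lower, against 55.4%. Of the 9, 5 (Nop10, Rrp9, Nop2, Gnl3 and Npm3) were listed at 0 in WT day 3. In NLRP3KO the ratio was 0.788 (0.388 to 1.47) on 12 and 69 fragments, an interval that includes 1, so no difference was detectable at this depth. Of 17 genes, 2 (Pes1 and Noc3l) were at least 2-fold higher at day 6, against 21.0% of all 5207 entries, and 12 lower, against 51.8%, with a median of -1.65 beside -1.31. Bounds did not overlap for Mybbp1a among the lower genes, against 8.35% of entries, and for 0 of the higher ones, against 0.0576%. By any amount, 4 of 23 genes were higher, against 29.0% of entries, and 19 lower, against 71.0%. The day 3 NLRP3KO and WT libraries also enter the genotype comparison, so the comparisons over stage and genotype are not independent of each other.

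Other genes of the pathway, on lists that do not overlap the group, were lower in NLRP3KO at day 3 as well. Of 96 other ribosome biogenesis genes found, 71 had an FPKM of at least 1 in either library, 29 of them at least 2-fold lower in NLRP3KO, beside the 27.2% of all entries, and 11 higher, beside 25.4%, with a median of -0.66. Their pooled ratio at day 3 was 0.604 (0.480 to 0.757), beside 0.372 for the group, and at day 6 it was 0.372 (0.217 to 0.599). Wdr46, a small subunit factor, was at 8.26 in WT day 3 and 0 in NLRP3KO day 3, and Dnttip2 at 5.91 and 0. They were the genes with bounds that did not overlap, but at a value of 0 the bounds are often 0 themselves. Mdn1, an ATPase that remodels the large subunit, was at 1.69 and 0.840, Gtpbp4 at 4.14 and 3.09, Emg1 at 14.5 and 12.5 and Polr1d at 20.8 and 6.75. Nhp2l1, a box C/D core protein, went the other way, at 0 and 3.36. In naive cells 3 of the 96 were at least 2-fold lower in NLRP3KO, with bounds that did not overlap, a share near the 1.97% of all entries: Taf1d (18.5 in WT and 7.87 in NLRP3KO), Znrd1 (12.1 and 5.21) and Twistnb (5.52 and 2.06).

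At day 6, 53 of 67 other ribosome biogenesis genes were at least 2-fold lower in NLRP3KO, beside 53.8% of all entries, and 6 higher, beside 20.9%. Bounds did not overlap for 14 of them, beside 12.3% of entries, all listed at 0 in NLRP3KO: Taf1d, Mphosph10, Bms1, Nat10, Dhx37, Nol9, Las1l, Rrp1, Ftsj3, Rsl1d1, Ddx27, Eif6, Nvl and Lsg1. The depth limit stated above for the group holds for them too, since 2 of the 52 genes at 0 in NLRP3KO had a WT level above that of 3 fragments.

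Metabolic and growth genes linked to Myc were also lower in sum in NLRP3KO at day 3, and the difference from the group was not tested. Their pooled ratio was 0.748 (0.594 to 0.939) over 13 genes, of which 6 were at least 2-fold lower in NLRP3KO, beside 27.2% of all entries, and 0 higher, beside 25.4%. Hspd1, a mitochondrial chaperone, was at 9.16 in WT and 0 in NLRP3KO at day 3, and at 13.3 and 0 at day 6. Its bounds did not overlap at either time, but the exact intervals of its ratios of shares, 0 to 1.01 and 0 to 2.86, include 1. At day 6 its WT level was below the 17.2 that 3 fragments would give in NLRP3KO. Nme1, a nucleotide kinase, was at 15.3 and 3.43, while the cell cycle gene Ccnd2 was at 31.4 and 35.9. Against naive cells this list was higher at day 3 in both genotypes, at 2.82 (2.44 to 3.25) in WT and 2.47 (2.05 to 2.95) in NLRP3KO. At day 6 its ratio between genotypes was 1.10 (0.736 to 1.59), with 6 of 13 genes at least 2-fold lower in NLRP3KO, a smaller share than the 53.8% of all entries, 1 higher, beside 20.9%, and bounds of Nme1, Hspd1, Prmt5 and C1qbp that did not overlap, all 4 at 0 in NLRP3KO. The 10 other genes of the Myc network had a ratio of 1.85 (0.952 to 3.72) at day 3, an interval that includes 1. Of 5 genes that reached an FPKM of 1, 3 were higher in NLRP3KO by 2-fold or more, beside 25.4% of all entries, and 0 lower. Among them were Mga at 0.760 in WT and 2.84 in NLRP3KO and Mlxip at 0.467 and 3.93.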

How the data were processed

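Values were taken from the 6 gene tables that the authors deposited, 1 per library, which hold FPKM with lower and upper confidence bounds and a status, per the file headers. Per the submitters' processing notes, TopHat and Cufflinks were used with build mm9, and versions and annotation were not given in the sources used here. Of 23700 entries, 285 without status OK were left out. Coordinates of genes are mm9, counted from 1. The genes and lists were chosen with earlier results of these data known.

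FPKM were scaled by the median ratio over 1059 genes that reached an FPKM of 1 in every library (factors 0.328, 0.245, 2.02, 1.78, 1.83 and 1.62 in the order used in the text). A scaled difference uses a pseudocount of 1. Levels in 6 libraries are given for Myc, Max, the 4 genes of each role with most fragments and every gene at least 2-fold apart between genotypes with bounds that do not overlap. Of the other lists, the 2 genes with most fragments and every gene apart in that way are named.

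Fragments were inferred from the FPKM and bounds. An upper bound 3 times the step of a single fragment was taken as that of 1 fragment, which gave the totals behind the FPKM (4571255, 3112342, 604216, 475361, 562337 and 129744). Each gene's length was then fitted near a GENCODE M21 length so that Th2 values come close to whole fragments. The weighting of that fit, and a limit at the gene's own span, were revised several times while values of Myc, Max, Nop58, Npm1 and Nop10 were in view, so it was chosen after seeing the data. Within 0.1 of a whole number were 91.0 to 94.0% of Th2 values under 20 fragments after the fit, which aims at this, and 63.1 to 68.5% with lengths as annotated. Single-gene fragments depend on the length chosen: Nop58 in WT day 3 had 5 by the fit and 25.6 by the annotated length, and Myc had 17.1 by the fit and 9.1 with equal weights. Small RNAs, ribosomal RNA genes and models up to 300 bases were left out of fragments on genes. Ratios of shares have exact Clopper-Pearson intervals, and a count of 0 allows 3 fragments. The steps were tested on simulated data with a known length for each gene and bounds built by the rule that the fit assumes. That does not settle which length holds in these data. The simulated stage fit had the same spread for every entry and did not model depth or zeros. Python 3.11.15, pandas 2.3.3, numpy 2.4.6, SciPy 1.17.1 and matplotlib 3.10.9 were used. Genotype over the 3 stages was fitted with limma 3.58.1 in R 4.3.3 with stage as a block. Alternatives were other pseudocounts, minimum FPKM, scalings, lengths and sums.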

Additional observations from a re-analysis of the deposited data

Results flagged for a closer look

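The share of the 38 genes went in opposite directions from naive to day 3 in the genotypes: the pooled ratio was 1.40 in WT and 0.577 in NLRP3KO, with intervals on either side of 1. The difference between the genotypes was not tested. By the sum of scaled FPKM the ratios were 0.960 and 0.491, so the opposite directions depend on the measure, while NLRP3KO was below WT by both.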

How the results depend on the processing

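Of 147 alternative values, 117 lay within the interval of the main value (for counts, within 1.5 times it) and 30 did not. Of 85 medians and ratios, 10 changed side of no difference: the naive median (0.01 scaled by fragments on genes), the WT day 6 against day 3 median (-0.02 with no minimum FPKM and -0.03 with zeros at 3 fragments) and its ratio (1.01 to 1.14 under 5 settings), and those marked below. The alternatives on lengths, on sums of scaled FPKM, without Lars2 and with stage as a block were chosen after seeing the data. With a minimum FPKM of 5, genes at least 2-fold lower in NLRP3KO numbered 5 at day 3 and 8 at day 6 and those higher 0 and 0, WT day 3 had 2 genes above naive, and WT day 6 had 3 above and 0 below day 3; the day 6 median was -3.66. With FPKM as deposited, which shifts the median of all entries to 0.37 in naive cells, -2.05 in WT and -2.33 in NLRP3KO day 3 against naive, the naive genotype median changed side to 0.30 with 1 gene higher, the day 6 one was -1.82, WT day 3 against naive had 0 higher, 33 lower and a median of -2.24, and NLRP3KO had 38 lower and -3.06. With a pseudocount of 0.1, the day 6 median was -5.43, and NLRP3KO day 3 against naive had 2 higher and a median of -1.68. With zeros set to 3 fragments, the day 3 median was -0.68 over 19 genes, the day 6 median -0.42 over 9 genes and that of NLRP3KO day 3 against naive -0.42. Scaled by fragments on genes, 2 genes were higher at day 6. The naive ratio was 0.944 without Npm1 and Ncl, 0.835 with median ratio scaling, 0.682 by sums of scaled FPKM and 0.849 with annotated lengths. The day 6 ratio was 0.141 without Npm1 and Ncl. The WT day 3 ratio to naive was 1.16 without them, 1.19 with median ratio scaling and 0.960, reversed, by sums of scaled FPKM; the cause was not tested. Under the 3 other length choices the day 3 genotype ratio lay between 0.365 and 0.403. Single genes in Th2 libraries rest on few fragments, and in NLRP3KO day 6 a gene had to be high to be seen at all. With stage as a block, 0 genes of the group passed the threshold, also with a pseudocount of 0.1 and a minimum mean of 5, where 3 and 3 had an unadjusted p under 0.05. A block on replicate numbers could not be fitted, since each group was a single library.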
